A study of Homo sapiens with 6 samples.

Results

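The genes described here encode proteins of the mitochondrial ribosome. They were taken as every gene of the table whose symbol begins with MRPL or MRPS followed by a digit, which gave 77 of 16670 genes. Of these, 48 carried large subunit symbols (MRPL) and 29 carried small subunit symbols (MRPS). RNA came from A549, an established line of human non-small cell lung cancer. The untreated group included, every culture had first spent 1 week in alisertib, which blocks Aurora A, a kinase of mitosis. The drug was renewed during that week, to bring the cells into senescence, a lasting arrest of division. The untreated group (3 libraries) received nothing more, and the salinomycin group (3 libraries) was then exposed to 2.5 µM salinomycin, a polyether ionophore that carries potassium across membranes, for 48 hours. The labels call the 3 libraries of each group biological replicates. No group of A549 cells without alisertib was analysed here, so every comparison is between senescent cells with and without salinomycin.

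Mitochondria keep their own ribosome, which translates only the few messages of mitochondrial DNA, all of them for membrane proteins of the respiratory chain and ATP synthase. Its RNAs are made inside the organelle, while all its proteins are encoded in the nucleus, made in the cytosol and imported. The large subunit joins amino acids at the peptidyl transferase centre and releases the chain through a tunnel at the inner membrane. The small subunit holds the messenger RNA at the decoding site. Some of the proteins have bacterial counterparts, and others are found only in mitochondria.

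Values are normalised units per library, made from the deposited gene values after scaling between libraries. Changes are log2 differences of salinomycin minus untreated, on the scale of log2(units + 1), each with its standard error (SE). Adjusted p-values are from limma over all 13049 tested genes with Benjamini-Hochberg adjustment, and "rose" or "fell" is used at an adjusted p under 0.05. Estimated reads per library ran from 13539959 to 19641149, and 14972 to 15285 genes were above 0. The epithelial markers KRT8, KRT18, KRT19, CDH1 and EPCAM were all present, with a summed level of 152080 to 167704 units untreated and 33824 to 37954 after salinomycin, and 4 of the 5 fell. The alveolar markers SFTPB and SFTPC were at or near 0. The third, NKX2-1, a transcription factor of lung epithelium, was at 0 in every untreated library and at 15.7, 14.1 and 16.9 units after salinomycin. It reached the level needed for testing only through the salinomycin libraries, so its p-value is not given. The fibroblast markers COL1A1 and PDGFRB summed to 541 to 757 and then 401 to 436 units. Endothelial markers did not exceed 8.33 units in sum, and CD68, the leukocyte marker in the table, did not exceed 14.1. The part of these markers in the results below was not tested. In bulk RNA, fewer cells of a kind and less RNA per cell cannot be told apart.

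Promoters were available for 68 of the 77 genes, from RefSeq on GRCh38.p14, each covering 250 bases before to 50 bases after the start. The stretches upstream of the genes with the largest rise and the largest fall of each subunit are shown first, and their part in these changes was not tested. Each ends at the base before the annotated start and reads 5′ to 3′ on the gene's strand. In MRPL55, capitals mark the reverse complement of TGATGNAA, a composite site of C/EBP and ATF factors. No motif searched was found in the stretches without capitals.
MRPL55 (largest rise, chr1:228109300-228109419, minus strand): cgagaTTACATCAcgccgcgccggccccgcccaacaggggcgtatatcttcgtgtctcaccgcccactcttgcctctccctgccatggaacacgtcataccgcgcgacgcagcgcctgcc
MRPL48 (largest fall of the large subunit, chr11:73787754-73787873, plus strand): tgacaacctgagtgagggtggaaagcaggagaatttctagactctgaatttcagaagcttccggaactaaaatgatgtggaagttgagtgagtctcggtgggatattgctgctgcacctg
MRPS26 (largest rise of the small subunit, chr20:3045932-3046051, plus strand): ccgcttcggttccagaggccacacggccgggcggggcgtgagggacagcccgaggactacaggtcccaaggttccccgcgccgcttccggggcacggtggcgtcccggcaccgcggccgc
MRPS6 (largest fall of the small subunit, chr21:34073458-34073577, plus strand): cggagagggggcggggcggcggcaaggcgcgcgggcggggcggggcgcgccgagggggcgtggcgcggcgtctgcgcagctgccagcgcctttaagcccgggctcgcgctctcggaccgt
For all 7 genes shown with an upstream stretch, here and below, the RefSeq start lies inside the gene as GENCODE release 29 draws it, by 13 bases in MRPL55 and 107 in MRPS26. In MRPL48, MRPS6 and MRPS18C the whole stretch does.

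A short window after the start is shown for 8 genes with a match to ATGGCGGC, the core of the YY1 site, which is set in capitals. These include MRPS18A and MRPS18B, 2 of the 3 relatives of bacterial S18, and genes of both subunits that rose, fell or did not pass the test.
MRPS18A (chr6:43687761-43687790, minus strand): ggtttttgaagATGGCGGCcctcaaggctc
MRPS18B (chr6:30617855-30617884, plus strand): cgtacgtcaagATGGCGGCgtctgtattaa
MRPS30 (chr5:44808952-44808981, plus strand): cgcgggcaaagATGGCGGCggccaggtgtt
MRPS10 (chr6:42217831-42217860, minus strand): ggaccggcaagATGGCGGCgcggacagcgt
MRPS35 (chr12:27710833-27710862, plus strand): tcctcgcagccATGGCGGCcgccgcgctcc
MRPL46 (chr15:88467359-88467388, minus strand): gagaacgaaagATGGCGGCgcccgtaaggc
MRPL38 (chr17:75904855-75904884, minus strand): ggagggaagATGGCGGCgccctggtggcga
MRPL50 (chr9:101398574-101398603, minus strand): tctcatcgaagATGGCGGCgcgatctgtgt
The match was found in 19 of the 68 promoters (27.9%), against 5.14% of the 13230 promoters of coding genes in the table and 3.21% of all 27305 promoters. In 17 of the 19 it lay after the start, on the gene's own strand. The same letters also spell a start codon followed by an alanine codon, and whether a match is a binding site was not tested.

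The other motifs were searched on both strands in the same windows. The ETS site bound by GABP, CCGGAAGT, was in 10 of the 68 promoters (14.7%, against 7.14% of coding promoters), among them 19.5% of the large subunit and 7.41% of the small subunit promoters. The NRF1 site, GCGC and TGCGC joined by any base, was in 8 (11.8%, against 9.64%). It is nearly its own reverse complement, so 1 stretch can match on both strands. The TGATGNAA site was in 1 promoter, that of MRPL55 (1.47%, against 2.03%). The unfolded protein response element TGACGTGG and the endoplasmic reticulum stress element (CCAAT, a spacer of 9 bases, CCACG) were in none of the 68 promoters, against 0.915% and 0.128% of coding promoters. Of the 10 genes with the ETS letters, 7 rose, 1 fell (MRPL16) and 2 did not pass (MRPL27 and MRPL47). Of the 8 with the NRF1 letters, 4 rose, 2 fell (MRPL36 and MRPL45) and 2 did not pass (MRPS9 and MRPS33). The background was 41.6% rises and 40.4% falls over all tested genes. Among the 76 tested mitochondrial ribosomal protein genes, 39 rose (51.3%) and 19 fell. Whether genes with the ETS or NRF1 letters differ from these backgrounds was not tested. MRPL3 is shown for its ETS match and MRPL17 for its NRF1 match, in capitals. Both were chosen after their values were seen, as genes that rose at least 2-fold. MRPS18C, the remaining S18 relative, had no match in the stretch shown.
MRPL3 (chr3:131502972-131503071, minus strand): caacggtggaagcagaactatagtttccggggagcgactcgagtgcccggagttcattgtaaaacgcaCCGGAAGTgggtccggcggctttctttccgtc
MRPL17 (chr11:6683341-6683440, minus strand): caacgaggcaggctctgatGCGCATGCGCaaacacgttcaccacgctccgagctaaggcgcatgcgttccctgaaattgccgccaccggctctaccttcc
MRPS18C (chr4:83455938-83456057, plus strand): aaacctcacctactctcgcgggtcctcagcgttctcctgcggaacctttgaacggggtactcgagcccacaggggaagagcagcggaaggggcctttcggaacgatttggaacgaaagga

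After salinomycin, mitochondrial ribosomal protein transcripts moved in both directions, with more rises than falls. Of the 76 tested genes, 39 rose, 19 fell and 18 did not pass the test. In all, 76.3% passed in either direction, against 82.0% of all tested genes, so the share that passed was a little under the background. Rises made up 51.3% of the tested genes against 41.6% of all genes, while the 19 falls stood against a background of 40.4%. The median change was 0.18 (quartiles -0.21 and 0.54) against 0.02 (quartiles -0.71 and 0.69) over all tested genes. The spread of the changes was also narrower, with an SD over genes of 0.67 against 1.38. The sets were not matched for level, and the part of the level in this spread was not tested. At least 2-fold rises were seen for 9 genes and a 2-fold fall for 1, where 16.7% and 18.5% of all tested genes changed that far. The libraries of both groups did not overlap for 58 of the 76 genes, against 83.1% of all genes.

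The split of calls moved with the scaling. With library-size scaling, under which the median of all genes shifted to 0.21, 48 of the 76 genes rose and 12 fell (median 0.37). With upper-quartile scaling, under which the median of all genes was -0.07, 36 rose and 22 fell (median 0.10). MRPS24, the 1 gene that was not tested, stood at 4.32, 0 and 2.13 units untreated and 1.85, 0 and 2.82 after salinomycin, from 6 and 5 estimated reads.

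**Figure D1:**
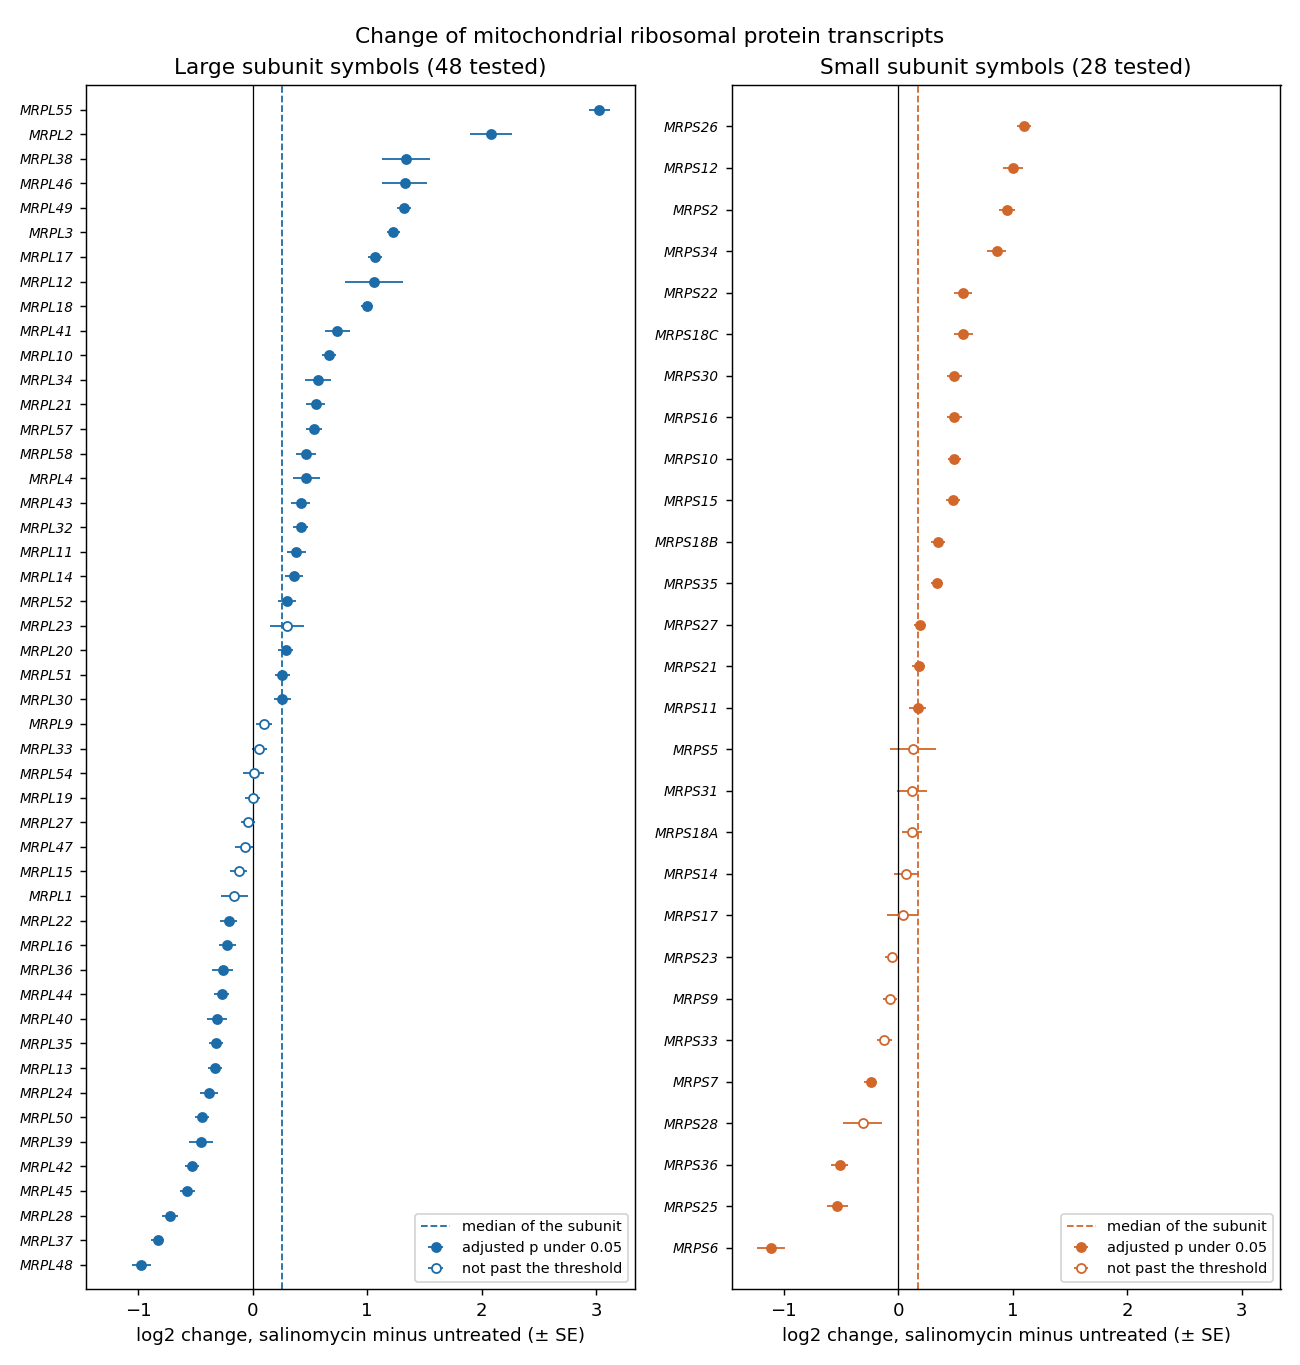
Log2 change after salinomycin (x axis, with SE) of each tested gene, large subunit symbols at left (48 genes) and small subunit symbols at right (28 genes), n = 3 libraries per group. Filled points have an adjusted p under 0.05; MRPL55 stands farthest right at 3.03 and MRPS6 farthest left at -1.11, and the dashed lines mark the subunit medians of 0.26 and 0.17.

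In the large subunit, 24 of 48 genes rose, 15 fell and 9 did not pass (median 0.26, SD over genes 0.76). In the small subunit, 15 of 28 rose, 4 fell and 9 did not pass (median 0.17, SD 0.49). Rises were 61.5% of the calls in the large subunit and 78.9% in the small subunit, against 50.8% over all tested genes. With library-size scaling they were 76.3% and 86.4%, against 59.7% over all tested genes. With upper-quartile scaling they were 60.0% and 66.7%, against 46.6%. The difference of the medians, large minus small, was 0.09. Its sign did not hold under every setting: it was -0.07 with a stricter filter on low values and -0.02 without untreated replicate 2. All but 1 of the 9 rises of 2-fold or more belonged to the large subunit. Among these, MRPL2, MRPL12, MRPL38 and MRPL46 rest on 38 to 65 estimated untreated reads. MRPL18 and MRPS12, at 2.0-fold after rounding, lay just under the cut and are not among the 9.

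Symbols and structures differ for 3 genes. MRPS30 and MRPS18A are placed in the large subunit by structures of the ribosome, where they are called mL65 and mL66. MRPS36 is also known as KGD4, a component of the 2-oxoglutarate dehydrogenase complex. Counted by structure, 25 of 50 large subunit genes rose and 15 fell, and 14 of 25 small subunit genes rose and 3 fell. The difference of the medians was then 0.08.

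Summed over its genes, the large subunit stood at 31758, 31100 and 29370 units in the untreated libraries and at 36113, 38566 and 40052 after salinomycin. The small subunit stood at 21371, 20571 and 19971 units and then at 24744, 26201 and 27454. Both sums were higher in every salinomycin library, without overlap. The large-to-small ratio was 1.486, 1.512 and 1.471 untreated and 1.459, 1.472 and 1.459 after salinomycin, so its groups overlapped (1.49 ± 0.0207 and 1.46 ± 0.00751, SD, n = 3). The mean log2 level of the large subunit genes minus that of the small subunit genes, which weighs all genes alike, was -0.259, -0.288 and -0.26 untreated and -0.227, -0.163 and -0.196 after salinomycin. These groups did not overlap, and the shift was towards the large subunit, opposite in sign to that of the mean ratio of the sums. The equal weighting gives full weight to MRPL2, MRPL12, MRPL38 and MRPL46, large subunit genes that rose from 38 to 65 estimated untreated reads. Their changes were 2.08, 1.06, 1.34 and 1.33, against a median of 0.26 over the large subunit. With the stricter filter on low values, which left 45 large subunit genes, the difference of the medians was -0.07. The shift is therefore not read as a trait of the whole large subunit. Its value without these genes was not tested. As a share of all values, the genes together made up 0.295% ± 0.00964 untreated and 0.422% ± 0.018 after salinomycin. Such a share is set by the library total, as in library-size scaling, under which the median change of all tested genes was 0.21. The share therefore rose by more than the sums in units did. The mitochondrially encoded genes of the same libraries went from 3.59% ± 0.189 to 0.316% ± 0.0318.

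**Figure D2:**
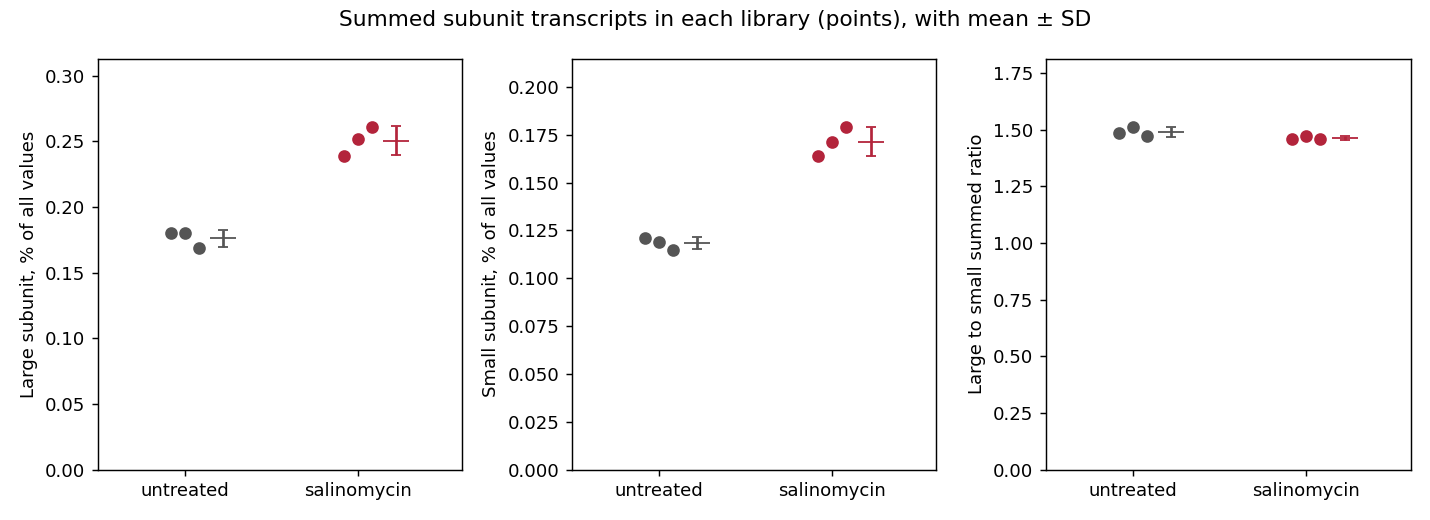
Summed large and small subunit transcripts as a percent of all values, and their ratio, in each library (points) with mean ± SD, n = 3 per group; all y axes start at 0. The 3 salinomycin libraries lie above the untreated ones for both sums, while the ratio lies between 1.459 and 1.512 in all 6 libraries. The percents follow library-size scaling, under which the median change of all tested genes was 0.21.

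The largest rise was that of MRPL55, the counterpart of bacterial L31, which sits in the central protuberance at the top of the large subunit. It stood at 269, 226 and 252 units untreated and at 1815, 2007 and 2304 after salinomycin. The groups lay far apart. The change was 3.03 (SE 0.092, limma adjusted p = 4.45e-11), an 8.16-fold rise. It lies at chr1:228106679-228109312 on the minus strand (GENCODE release 29, GRCh38), and no other annotated gene shares its exons.

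Of the other genes listed here for the central protuberance, 4 more rose and 2 fell. The genes of this region and of those below were listed after their values were seen. For each region the background is 41.6% rises and 40.4% falls over all tested genes. MRPL38 stood at 16.2, 13.8 and 12.8 units and then at 36.1, 41.2 and 35.7 (log2 1.34, SE 0.209, 2.54-fold). MRPL46 stood at 15.1, 20.2 and 18.1 units and then at 44.4, 49.7 and 44.1 (log2 1.33, SE 0.197, 2.51-fold). Both rises rest on few reads, 38 and 46 estimated reads over the untreated group. MRPL18, which binds RNA in the protuberance, was higher in every salinomycin library, at 784, 767 and 767 units untreated and 1483, 1545 and 1602 after salinomycin (log2 1.00, SE 0.054, 2.0-fold). MRPL58, a peptidyl-tRNA hydrolase built into the ribosome, rose 1.38-fold. MRPL48 went the other way, from 297, 279 and 303 to 147, 150 and 151 units, without overlap (log2 -0.97, SE 0.087, limma adjusted p = 5.61e-07, 1.95-fold lower). MRPL40 was 1.24-fold lower, a call lost with library-size scaling (log2 -0.12).

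For the stalk, the flexible arm that recruits translation factors, and its base, 3 genes were listed after their values were seen. All 3 rose, where 41.6% of all tested genes did. MRPL10, which anchors the stalk, went from 1445, 1345 and 1273 to 2030, 2185 and 2252 units (log2 0.67). MRPL11, at the stalk's base, rose 1.3-fold. MRPL12, which forms the stalk itself, went from 29.2, 16 and 29.9 to 47.2, 45 and 63.8 units (log2 1.06, SE 0.254). All 3 were higher in every salinomycin library. MRPL12 is uncertain, since 68.2% of its exon sequence is shared on the same strand with another annotated gene. It also rests on only 65 estimated untreated reads.

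Around the peptidyl transferase centre, where amino acids are joined, MRPL2 and MRPL3 rose, MRPL16 fell and MRPL27 did not pass. MRPL2 went from 17.3, 24.5 and 19.2 to 79.6, 94.7 and 91.1 units, without overlap (log2 2.08, SE 0.182, limma adjusted p = 4.59e-07, 4.22-fold). It rests on 53 and 306 estimated reads. MRPL3 was far better covered, at 862, 870 and 789 units untreated and 1917, 2016 and 1984 after salinomycin. Its groups were also apart (log2 1.23, SE 0.057, limma adjusted p = 1.36e-09, 2.35-fold). MRPL16 fell 1.17-fold and MRPL27 differed by -0.04 (adjusted p = 0.583). The call of MRPL16 was lost with library-size scaling (log2 -0.03) and without untreated replicate 1 or salinomycin replicate 1 (log2 -0.18 and -0.16).

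Along the exit tunnel, 2 of the 7 genes listed here rose, 3 fell and 2 did not pass. As shares, 28.6% rose and 42.9% fell, against 41.6% and 40.4% of all tested genes. MRPL17, near the tunnel's exit, went from 1236, 1179 and 1187 to 2342, 2565 and 2664 units (log2 1.07, SE 0.058, 2.1-fold). MRPL4, in the tunnel wall, rose 1.39-fold. MRPL45, which holds the exit against the inner membrane, went from 1166, 1129 and 1088 to 711, 819 and 745 units (log2 -0.57, SE 0.065, 1.49-fold lower). MRPL22 and MRPL24, tunnel proteins with bacterial counterparts, fell 1.15-fold and 1.31-fold. The call of MRPL22 was lost with library-size scaling (log2 -0.02) and without untreated replicate 1, salinomycin replicate 1 or salinomycin replicate 2 (log2 -0.19, -0.15 and -0.21). MRPL23 (log2 0.30, adjusted p = 0.0855) and MRPL47 (log2 -0.07, adjusted p = 0.464) did not pass. The members of this region therefore went both ways.

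Outside these regions, the large subunit's named rise was MRPL49, found only in mitochondrial ribosomes. It went from 1398, 1394 and 1241 to 3159, 3401 and 3474 units, without overlap (log2 1.32, SE 0.061, limma adjusted p = 1.49e-09, 2.49-fold). By contrast MRPL37, a mitochondria-specific protein, went from 1023, 1020 and 992 to 568, 552 and 583 units (log2 -0.83, SE 0.057, 1.78-fold lower). MRPL28, with a bacterial counterpart, went from 972, 845 and 926 to 539, 553 and 569 units (log2 -0.72, SE 0.067, 1.65-fold lower). Both were lower in every salinomycin library. MRPL42 and MRPL39, also mitochondria-specific, fell 1.44-fold and 1.37-fold. Per length of the principal transcript, MRPL33 was the most abundant large subunit gene, at 3490 untreated units per kilobase. Its groups overlapped, at 1792, 1967 and 1666 units against 1760, 1913 and 1975 (log2 0.06, adjusted p = 0.431). That value was -0.03 with upper-quartile scaling and 0.25, past the threshold, with library-size scaling.

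**Figure D3:**
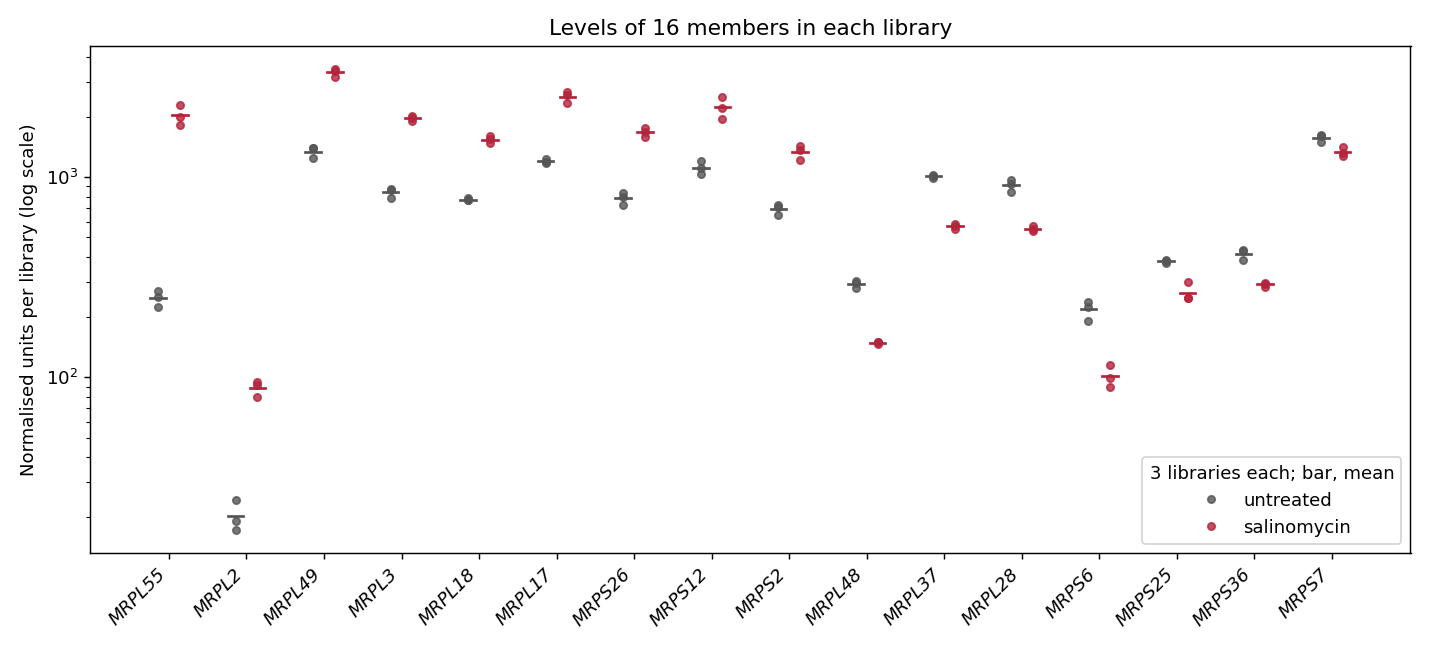
Normalised units (log axis) of 16 genes in each of the 3 untreated (grey) and 3 salinomycin (red) libraries, with a bar at each mean. MRPL55 moves farthest, from 226 to 269 units up to 1815 to 2304, and the groups of each gene shown are apart.

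In the small subunit, MRPS26, a mitochondria-specific protein, had the largest rise. It stood at 830, 725 and 796 units untreated and at 1591, 1681 and 1764 after salinomycin, without overlap (log2 1.10, SE 0.065, limma adjusted p = 1.3e-08, 2.14-fold). MRPS12, which lies at the decoding site, went from 1209, 1034 and 1108 to 1965, 2218 and 2531 units (log2 1.00, SE 0.087, 2.0-fold). MRPS2, of the subunit's body next to the head, went from 707, 651 and 727 to 1222, 1372 and 1430 units (log2 0.95, SE 0.071, 1.93-fold). In all 3 the salinomycin libraries were the higher ones. The mitochondria-specific proteins MRPS34 and MRPS22 rose 1.81-fold and 1.48-fold. MRPS5, close to the messenger RNA entry, did not pass (log2 0.13, adjusted p = 0.547).

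MRPS6 was the only small subunit gene that fell 2-fold or more. It went from 226, 239 and 191 to 99.1, 90 and 115 units, without overlap (log2 -1.11, SE 0.126, limma adjusted p = 5.12e-06, 2.15-fold lower). It lies at chr21:34073224-34143034 on the plus strand, and 31.9% of its exon sequence is shared with other genes on the same strand, SLC5A3 among them, so reads could have been assigned to either. MRPS25, mitochondria-specific, was 1.44-fold lower. MRPS36 went from 426, 431 and 388 to 294, 284 and 296 units (log2 -0.51, SE 0.076, 1.42-fold lower). MRPS7, of the head and the most abundant small subunit gene per length at 1120 untreated units per kilobase, went from 1632, 1601 and 1494 to 1281, 1320 and 1409 units (log2 -0.24, 1.18-fold lower). The call of MRPS7 was lost with library-size scaling, where its change was -0.05. Of the other head proteins listed here, MRPS10 rose (log2 0.49), while MRPS9 (log2 -0.07) and MRPS14 (log2 0.07) did not pass.

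Humans carry 3 relatives of bacterial S18, of which 2 rose and 1 did not pass, where 41.6% of all tested genes rose. MRPS18C, the closest counterpart, went from 202, 213 and 193 to 289, 312 and 300 units (log2 0.57, SE 0.084, 1.48-fold). MRPS18B went from 1027, 1101 and 957 to 1250, 1311 and 1356 units (log2 0.35, SE 0.063). MRPS18A went from 495, 423 and 429 to 462, 462 and 539 units, with overlap (log2 0.12, adjusted p = 0.229). Its change was 0.31, past the threshold, with library-size scaling. The log2 difference MRPS18C minus MRPS18A was -1.14 ± 0.149 untreated and -0.69 ± 0.139 after salinomycin (SD, n = 3), a shift of 0.45 (2-sided exact permutation p = 0.1, adjusted 0.133). The shift was 0.22 for MRPS18C minus MRPS18B (exact p = 0.1, adjusted 0.133) and 0.23 for MRPS18B minus MRPS18A (exact p = 0.2, adjusted 0.2). On the opposite strand, 78.9% of MRPS18C exon sequence is shared with ABRAXAS1 and 56.9% of that of MRPS18A with RSPH9. Without strand, reads of such partners cannot be told apart, and whether the counting used strand is not given in the sources used here.

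MRPS30 and MRPL37 are related to each other in sequence and both belong to the large subunit by structure. MRPS30 went from 483, 466 and 449 to 682, 631 and 649 units (log2 0.49, SE 0.065), while MRPL37 fell as given above. The log2 difference MRPS30 minus MRPL37 was -1.12 ± 0.033 untreated and 0.20 ± 0.057 after salinomycin (SD, n = 3), a shift of 1.32. The sign of the difference turned in all 3 salinomycin libraries. Per length, MRPS30 went from 278 to 390 and MRPL37 from 682 to 383 units per kilobase. With 3 against 3 libraries the 2-sided exact permutation p was 0.1, the smallest possible, and 0.133 adjusted over the 4 pairs compared.

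In the classes of the ribosomal protein nomenclature, 23 of 45 tested genes with a bacterial counterpart rose and 9 fell (median 0.18). Of 30 mitochondria-specific genes, 16 rose and 9 fell (median 0.23). Within the large subunit, the mitochondria-specific genes were split almost evenly, at 9 rises and 8 falls of 18 (median 0.14), and those with a bacterial counterpart had 15 rises and 7 falls of 30 (median 0.27). In the small subunit the counts were 7 rises and 1 fall of 12, and 8 rises and 2 falls of 15. The median of the mitochondria-specific large subunit genes turned to -0.13 (7 rises, 8 falls) with the stricter filter of 50 units. It was 0.33 with library-size and 0.05 with upper-quartile scaling, and 0.08 without salinomycin replicate 3. The falls of the large subunit genes with a bacterial counterpart were 4 without untreated replicate 1 or salinomycin replicate 1, and 3 with library-size scaling. The difference between these classes was not tested. MRPS36 was placed in neither, and MRPS18A and MRPS18B, though relatives of bacterial S18, were counted as mitochondria-specific.

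Levels differed widely among the genes. A total of 7 had an untreated mean under 100 units: MRPL2, MRPL12, MRPL23, MRPL38, MRPL46, MRPS24 and MRPS28. For MRPL12, MRPL46, MRPS24 and MRPS28, more than 40% of exon sequence is shared on the same strand with another gene, a readthrough transcript URGCP-MRPS24 in the case of MRPS24. Their median untreated level was 20.9 units per kilobase, against 248 for the 9 genes with a smaller overlap and 424 for the 64 genes with none. The part of the read assignment in these low levels was not tested. Across the 76 genes, the change had a Pearson r of -0.27 and a Spearman rho of -0.10 with the untreated log2 level, and of -0.15 and -0.09 with the log2 transcript length. Over the 72 genes with an untreated mean of 50 units or more, r and rho with the level were both 0.05, so the negative r rests on the few genes of lowest level. All points share the same 6 libraries, and the changes share the untreated values with the level.

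Genes with the YY1 letters had 8 rises and 3 falls of 18 tested (median 0.11), and those with a promoter but no such match had 28 rises and 13 falls of 49 (median 0.26). As shares, 44.4% rose and 16.7% fell with the letters, and 57.1% and 26.5% without them. Over all tested genes, 41.6% rose and 40.4% fell. For the genes with the letters, falls were 1 without untreated replicate 1 or salinomycin replicate 1. Their median ran from 0.05 (without salinomycin replicate 3) to 0.17 (without untreated replicate 1), and was 0.02 with upper-quartile and 0.30 with library-size scaling. MRPL46 and MRPL38 rose and MRPL50 fell 1.35-fold, though all carry the letters shown above. This is a description of the windows, and the difference was not tested.

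Many of these genes start beside another gene on the opposite strand. A total of 26 pairs had starts within 1000 bases and both genes tested, 13 of them within 100 bases. Both genes passed the test in 17 pairs, in the same direction in 10 and in opposite directions in 7. Over all tested genes, 82.0% passed, 41.6% as rises and 40.4% as falls. No background of other pairs was computed, so these counts are not read as agreement between neighbours. Across the pairs, r was 0.08 and rho 0.20. MRPL52 rose slightly (log2 0.30) while SLC7A7, an amino acid transporter whose start is 59 bases away, fell by 3.69 on the log2 scale. MRPL43 rose (log2 0.42) while TWNK, the mitochondrial DNA helicase, fell (log2 -0.75). MRPL49 and FAU, which encodes the cytosolic ribosomal protein S30, both rose (1.32 and 0.84), as did MRPS12 and SARS2, the mitochondrial seryl-tRNA synthetase (1.00 and 0.69). On the opposite strand, 21.5% of MRPS12 exon sequence is shared with SARS2 and 9.6% of that of MRPL49 with FAU and SYVN1. For MRPL43 it is 30.4%, with SEMA4G and TWNK. Since use of strand in the counting is not given, reads of these pairs may not have been told apart. SARS2 rests on 127 estimated untreated reads. MRPL46 and MRPS11, whose starts lie 34 bases apart, are a pair from both subunits (1.33 and 0.17).

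**Figure D4:**
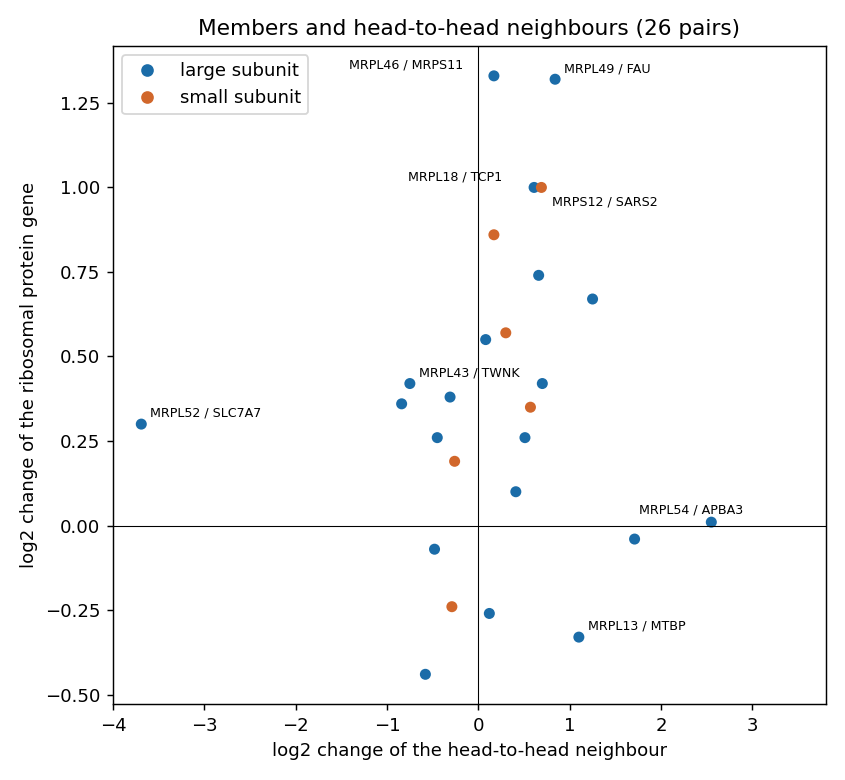
Log2 change of each ribosomal protein gene (y axis) against that of the gene starting head to head with it (x axis), 26 pairs, coloured by subunit, n = 3 libraries per group. The points form no line (r 0.08), and MRPL52 with SLC7A7 at -3.69 lies farthest left.

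The other parts of mitochondrial translation were described by their counts in the same fit. For these lists and those of the next paragraphs, the background is 41.6% rises and 40.4% falls among all tested genes. Of 5 ribosomal proteins with other names, 2 rose and 1 fell. AURKAIP1, a small subunit protein, rose 3.55-fold and GADD45GIP1, of the large subunit, 1.38-fold. PTCD3, of the small subunit, was 1.11-fold lower (log2 -0.14), but that change was 0.05 with library-size scaling, and the call was lost without untreated replicate 2 or salinomycin replicate 3 (log2 -0.13 each). Of 25 genes for assembly of the ribosome, 11 rose and 5 fell (median 0.13). The median was 0.04 (9 rises, 5 falls) with upper-quartile scaling, 0.32 (16 rises, 4 falls) with library-size scaling and 0.07 without untreated replicate 2. Among them TRUB2, a pseudouridine synthase, rose 2.91-fold, METTL17 2.3-fold and MRM1, a methyltransferase for ribosomal RNA, 2.12-fold.

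Of 14 translation factors, 4 rose and 6 fell (median -0.08), a balance that turned to 6 rises and 3 falls with library-size scaling (median 0.11). Falls were 4 without untreated replicate 1 or 2 or salinomycin replicate 2 or 3, and the median ran from -0.13 to 0.00 when single libraries were left out. MTFMT, which formylates the initiator transfer RNA, was 2.16-fold lower. MTRF1L and MTRFR, of the release factor family, rose 1.76-fold and 1.63-fold. Of 19 genes for charging transfer RNAs, 9 rose and 5 fell (median 0.04), a median that was -0.05 with upper-quartile scaling, 0.23 with library-size scaling and 0.16 with no filter. It ran from -0.001 (without salinomycin replicate 2) to 0.073 (without salinomycin replicate 1) when single libraries were left out. CARS2 and TARS2, the cysteinyl and threonyl enzymes, rose 2.87-fold and 2.51-fold, and MARS2, the methionyl enzyme, was 3.39-fold lower.

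Of 8 genes that copy or transcribe mitochondrial DNA, 4 rose and 2 fell (median 0.16). The counts were 3 and 3 with upper-quartile scaling (median 0.07), 5 and 2 with library-size scaling (median 0.35), and 3 and 3 without salinomycin replicate 1. The median was 0.10 without salinomycin replicate 3. POLRMT, the RNA polymerase, and TFB2M, its initiation factor, rose 2.26-fold and 2.27-fold, and TWNK was 1.68-fold lower. Falls were called for all 13 protein genes of mitochondrial DNA (median -3.57), and MT-CO1, a subunit of cytochrome oxidase, was 29.2-fold lower. Among the nuclear genes for mitochondrial ribosomal proteins, the largest fall was the 2.15-fold of MRPS6. Cytosolic ribosomal protein genes had 17 rises and 37 falls of 79 (median -0.13), and 32 rises and 25 falls (median 0.07) with library-size scaling, so their direction depended on the scaling.

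**Figure D5:**
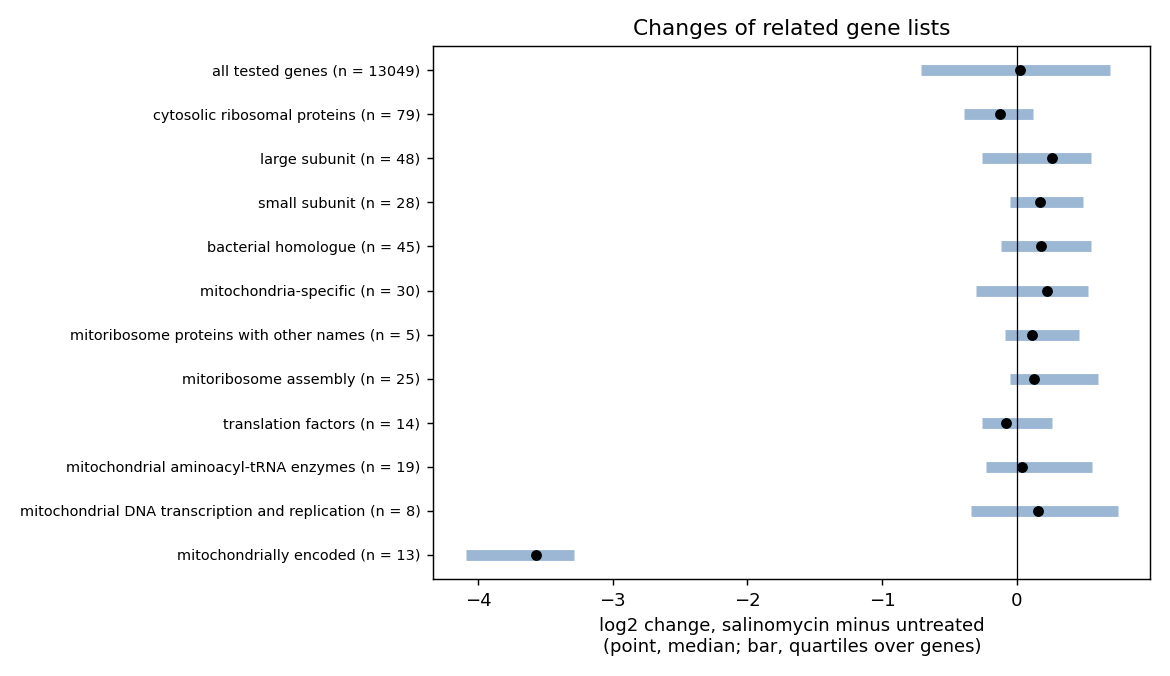
Median (point) and quartiles (bar) of the log2 changes of the ribosomal protein genes, the related gene lists and all tested genes, with the number tested in each label. The mitochondrially encoded genes lie at a median of -3.57, and every other list plotted has a median between -0.13 and 0.26.

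Among 10 regulators of such genes, 2 rose and 5 fell (median -0.18, and 0.01 with 4 rises and 2 falls under library-size scaling). With the stricter filter, which left 9 of them, the median was -0.07. PPRC1, a coactivator of the PGC-1 family, rose 2.32-fold. Its relatives PPARGC1A and PPARGC1B were 5.2-fold and 3.0-fold lower, PPARGC1A from a mean of 16.8 units, and by 2.36-fold with a pseudocount of 8. YY1 was 1.23-fold lower, a call lost with library-size scaling (log2 -0.10). NRF1 (log2 0.05), GABPA (log2 -0.07) and MYC (log2 -0.04) did not pass, and the sign of each changed under another scaling. With library-size scaling NRF1 was at 0.24, past the threshold.

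The authors' deposited table of gene sets gave a normalised enrichment score of 1.588 for the organellar ribosome (adjusted p = 0.0298) and 1.552 for mitochondrial translation (adjusted p = 0.0466). In the authors' deposited table, the large subunit set had a score of 1.414 (adjusted p = 0.152) and the small subunit set 1.409 (adjusted p = 0.21). By gene, the authors' deposited table called 28 large subunit genes higher and 7 lower (median log2 fold change 0.46). The authors' deposited table called 17 small subunit genes higher and 3 lower (median 0.36). With library-size scaling the medians computed here were 0.45 and 0.36.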

How the data were processed

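RNA of 6 libraries, 3 without and 3 with salinomycin, was read as gene values on GRCh38, per the submitters' processing notes. Aligner, counter and annotation are not given in the sources used here. Deposited signal values were whole numbers, rescaled by the authors to totals within 0.692% of each other and a lowest value of 1. The authors' log2 fold changes and p-values, and the enrichment score of each gene set, came from deposited tables, per the file headers. After subtraction of 1, values were scaled by TMM (trimmed mean of ratios, 30% of ratios and 5% of levels trimmed). Genes with 10 or more units in at least 3 libraries were tested as log2(units + 1) with a mean-variance trend in limma 3.58.1 (R 4.3.3). Reads were estimated from the steps left in low values, and are approximate. The fit was tested on simulated data.

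Members and lists were chosen with earlier results of these data known. Named genes were the 6 largest rises and falls past the threshold in each subunit, the most abundant per length, MRPS18A, MRPS18B, MRPS18C, MRPS30, MRPS36 and untested members, 3 per other list, and 6 regulators. Other genes were named by region or neighbour after their values were seen. Alternatives were other scalings, filters and pseudocounts, limma-voom on estimated reads, a replicate block, and leaving out each library. Exon overlaps and lengths are those of GENCODE release 29. Promoters are RefSeq's.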

Additional observations from a re-analysis of the deposited data

How the results depend on the processing

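The counts of rises and falls in each subunit stayed within 1.5 times under every alternative except library-size scaling, where the falls of the large subunit were 9 in place of 15. The large minus small difference of medians was -0.074 with the stricter filter of 50 units, and it ranged from -0.022 (without untreated replicate 2) to 0.095 when single libraries were left out. When single libraries were left out, rises ranged from 24 to 25 and falls from 12 to 15 in the large subunit, and rises from 14 to 15 in the small subunit, with 4 falls throughout. Replicate numbers are shared by both groups, but same-numbered libraries did not deviate together (r -0.178, -0.016 and -0.034). With the replicate block, the counts were 24 rises and 14 falls in the large subunit and 14 and 4 in the small, and the difference was 0.089. The calls of MRPL22, MRPS11 and PTCD3 were lost under the block (log2 -0.21, 0.17 and -0.14). Of 58 calls, 48 kept their call and direction under every alternative; MRPL16, MRPL22, MRPL35, MRPL36, MRPL40, MRPL44, MRPS7, MRPS11, MRPS21 and MRPS27 did not. MRPS11 (adjusted p = 0.0488, limma) was nearest the threshold, and its call was lost without untreated replicate 2 or 3 or salinomycin replicate 2 or 3, with median-of-ratios or upper-quartile scaling, with scaling without mitochondrially encoded genes, and with no filter (adjusted p 0.0517 to 0.319). That of MRPL36 was lost without untreated replicate 1 or salinomycin replicate 1. Of 861 alternative values of 54 named genes, 847 kept direction and side of the threshold. Those that reversed were MRPL33 and NRF1 (-0.03 each, upper quartile), PTCD3 (0.05), GABPA (0.12) and MYC (0.15) with library-size scaling, and GABPA when single libraries were left out (from -0.17 to 0.04, the latter without untreated replicate 3). The cause was not tested. Depth limits the genes under 100 units, such as MRPL2 with 53 and MRPL38 with 38 untreated reads.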
